A study of Phaffia rhodozyma with 6 samples.

Results

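The table of this yeast transcriptome names 2 genes Conidiation-specific protein 6 and 3 genes Velvet factor, and these 5 of its 6363 genes are described here. They were taken by those names and, through earlier results of these data, chosen by their log2 ratios and q-values in the comparison of the conditions. RNA was sequenced from 6 fermenter cultures of the astaxanthin-producing basidiomycete yeast Phaffia rhodozyma. Of these, 3 were of BPAX-A1, a strain labelled only as mutagenised, and 3 of the wild-type strain CBS6938, all sampled in late exponential phase. Per the labels' protocols, both strains grew on sucrose in defined medium at pH 5.5, 20 °C and 70% dissolved oxygen. The labels do not list the mutations that BPAX-A1 carries.

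For each gene, the authors' deposited table has 1 value in q1 and 1 in q2, its names for the compared conditions. Cuffdiff, the program that compared them, writes such values in FPKM (fragments per kilobase of transcript, scaled to the size of the library). Each value stands for a whole condition, so the spread between cultures cannot be computed, and read depth is unknown. No source used here says which of q1 and q2 is the mutant. Directions are therefore given for q2 relative to q1 and never for a strain. Errors are standard errors that the p-value of Cuffdiff implies under a normal distribution, and they add no test. These p-values are not the normal tails of Cuffdiff's own test statistic. Errors and intervals taken from that statistic would be wider for the 3 Velvet factors and for CED85109, a Conidiation-specific protein 6 gene. In RNA from whole cultures, a change in the number of cells that make a transcript and a change in its amount per cell cannot be told apart.

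Velvet factors are fungal transcription regulators that share the velvet domain, a DNA-binding and dimerising fold. In Aspergillus nidulans, where they are best known, VeA and VelB form a complex with the methyltransferase-like protein LaeA that ties light to spore formation and to secondary metabolism, and VosA acts in spore maturation and trehalose content. Conidiation-specific protein 6 is a small protein first described from con-6 of Neurospora crassa, a transcript of asexual spores (conidia) that is also induced by light. Phaffia rhodozyma grows by budding, and what either family does in it is not stated by the files. The names alone place the 5 genes here. The files do not say which Aspergillus protein each Velvet factor resembles, and the protein sequences were not used here.

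The first Conidiation-specific protein 6 gene, CED85080, went from a low level to one of the highest in the culture, while the second, CED85109, was barely detected in either condition. Of the 3 Velvet factor genes, CED85626 was lower in q2 and the other two did not pass the test. Cuffdiff thus called 2 of the 5 genes at a q-value (p-value adjusted over all tested genes) below 0.05, 1 higher and 1 lower. Over all 6272 tested genes, 5.53% were called, 3.65% higher and 1.88% lower. At an unadjusted p-value below 0.05 the count among the 5 genes was also 2, beside 14.6% of all tested genes, 10.5% higher and 4.13% lower. Because the genes were chosen with this contrast known, nothing is read from their count against that share.

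The authors' deposited table gives CED85080 (scaffold 249, 455828 to 456255) 9.75 FPKM in q1 and 6660 FPKM in q2. Among the levels of all 6363 genes it stood at place 5520 in q1 and at place 71 in q2. Leaving out 96 genes whose names hold a ribosomal protein term, its level was the 9th highest of q2. It took 0.308% of the FPKM sum of that condition. Its log2 ratio of 9.42 was the highest of the 6254 tested genes that had values above 0 in both conditions (q-value 0.00226). The p-value is at the table's floor of 5e-05, so its implied standard error is only bounded, at 2.32 or less. The ratio stayed between 8.35 and 9.40 under every pseudocount and scaling tried.

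The gene nearest to CED85080 in level and change shows how far such a ratio can be from a call. For this gene, the hypothetical protein CED84435 on scaffold 78, the authors' deposited table gives 8.96 FPKM in q1 and 5802 FPKM in q2. Its log2 ratio was 9.34, second only to that of CED85080, and its q-value was 0.661. The implied standard error of CED84435 was 7.96, against 2.32 or less for CED85080. This difference comes from the p-values alone. Cuffdiff's test statistics were closer, at 4.61 for CED84435 and 5.35 for CED85080. These were the only 2 genes below 10 FPKM in q1 and above 1000 FPKM in q2. The values of single cultures behind either were not available, so whether all q2 cultures shared the high level was not tested. The next most alike genes were much further away. The hypothetical protein CDZ96413 had 45.7 and 2146 FPKM and the transcription regulator CED85283, named after yeast Rlr1, had 24.4 and 1255 FPKM, and both were called higher in the authors' deposited table. Likeness here is the distance in the plane of log2(FPKM + 1) of both conditions, which was 0.23 for CED84435, 2.68 for CDZ96413 and 2.71 for CED85283.

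CED85080 is a short gene, with a span of 428 bases against a median of 1977 over the table. Of the 405 tested genes with spans under 600 bases, 55 (13.6%) were called, beside the 5.53% of all tested genes. The part that gene length plays in the value of CED85080 was not tested.

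CED85109 (scaffold 249, 553380 to 554232) carries the same name and lies 97124 bases further along the same scaffold, with 28 genes between them. The authors' deposited table gives it 0.504 FPKM in q1 and 0.314 FPKM in q2, which put it at places 6181 and 6250 of 6363. The level was thus below that of nearly all other genes in both conditions. Its log2 ratio was -0.68 with an implied standard error of 1.40 (q-value 0.905), and the implied 95% interval ran from -3.42 to 2.06. With a pseudocount of 1 FPKM the ratio was -0.19. Of the 67 tested genes under 1 FPKM in both conditions, 5 were called, beside 5.53% of all tested genes. Each of these 5 had a value of 0 in q1 or in q2, which CED85109 did not. The genes most alike were also near 0, among them an ADP/ATP carrier gene (CED82025) with 0.525 and 0.403 FPKM.

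**Figure D1:**
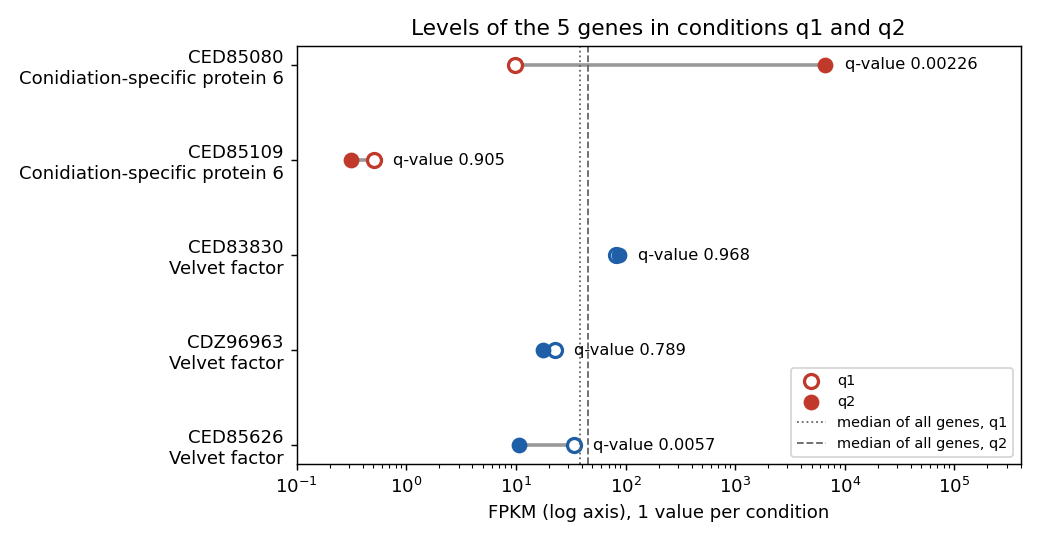
Level of each of the 5 genes in q1 (open circles) and q2 (filled circles), in FPKM on a log axis, with 1 value per condition and the authors' q-value beside it; vertical lines mark the median of all genes. CED85080 spans from 9.75 to 6660 FPKM, CED85109 stays below 1 FPKM, and of the 3 Velvet factors CED85626 has the widest gap.

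The log2 ratios of the pair of Conidiation-specific protein 6 genes were 10.1 apart. Names carried by exactly 2 genes numbered 357, with a median gap of 0.55, and no other pair had a wider one. This is a description of a pair chosen with its values known. The 3 Velvet factors spanned 1.75 on the same scale, against a median of 1.15 over the 112 names carried by exactly 3 genes, and 34 of these names spanned more.

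Among the Velvet factors, CED83830 (scaffold 69, 917098 to 919410) had the highest level. Its 81.1 FPKM in q1 and 86.8 FPKM in q2 of the authors' deposited table were above the medians of all genes of 38.2 and 45.1 FPKM. Its log2 ratio was 0.10 with an implied standard error of 0.48 (q-value 0.968), and the implied 95% interval ran from -0.84 to 1.03. The sign of this ratio is not fixed, since it became -0.01 after centring on the median of all genes and was also below 0 under the other scalings tried.

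CDZ96963 (scaffold 79, 865904 to 867322) had the lowest q1 level of the Velvet factors. Its values of 22.6 FPKM in q1 and 17.6 FPKM in q2, from the authors' deposited table, were both below the median gene. The log2 ratio was -0.36 with an implied standard error of 0.43 (q-value 0.789), and the implied 95% interval ran from -1.21 to 0.49.

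CED85626 (scaffold 249, 2189999 to 2193215) was the Velvet factor that fell. By the authors' deposited table its level was 33.9 FPKM in q1 and 10.8 FPKM in q2, which is 3.15-fold lower. In the order of levels it moved from place 3453 to place 5587 of 6363. Cuffdiff's p-value was 1.5e-04 and its q-value 0.00570 for a log2 ratio of -1.66. The implied standard error was 0.44, and the implied 95% interval ran from -2.51 to -0.80. Cuffdiff's own test statistic was -2.37, from which a wider interval would follow. The log2 ratio was below 0 under every pseudocount and scaling tried. A change of this size was often not called. Of the 139 other genes whose log2 ratio was within 0.1 of the same size in either direction, 33 were called. Among the 115 genes called lower with a level above 0 in both conditions, 93 fell further than CED85626.

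The order of the Velvet factors thus differed between the conditions. CED83830 was highest in both, while CED85626 lay above CDZ96963 in q1 and below it in q2. No difference between Velvet factors was tested, since all 3 were chosen with these values known. The 3 genes share the GO term for the nucleus in the authors' deposited table, and neither Conidiation-specific protein 6 gene has a GO term there. The gene most alike in level to CED85626 was the hypothetical protein CDZ97354, with 32.7 and 10.4 FPKM and not called (q-value 0.118). The next were a plasma membrane protein gene (CDZ96815), with 31.2 and 11.2 FPKM (q-value 0.0298), and the hypothetical protein CED85594, with 37.0 and 10.5 FPKM (q-value 0.0145), both called.

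**Figure D2:**
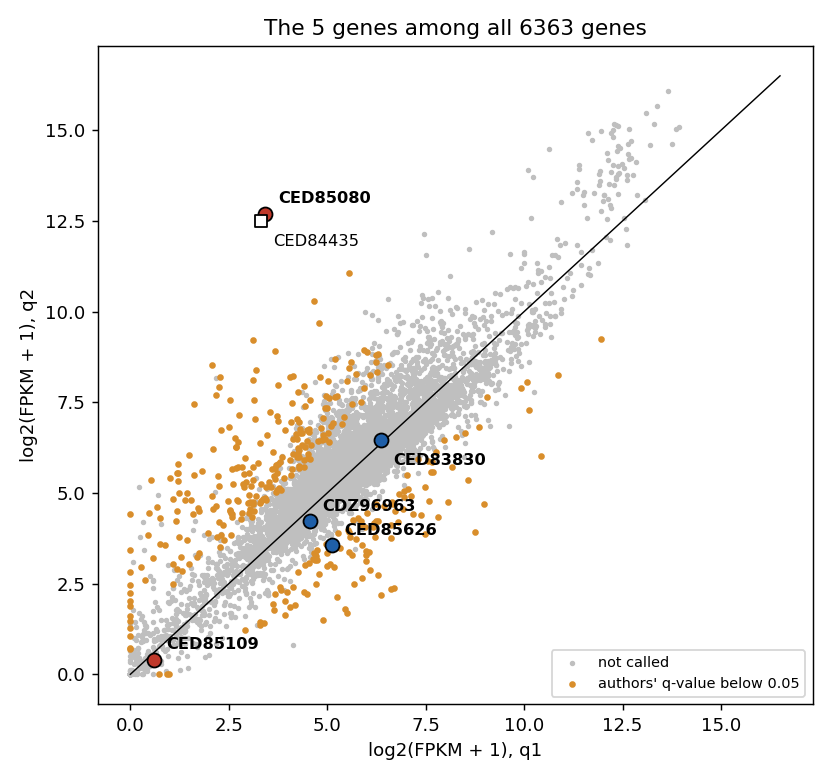
Each point is 1 of 6363 genes, placed by log2(FPKM + 1) in q1 and in q2; orange points have an authors' q-value below 0.05, red points are the Conidiation-specific protein 6 genes and blue points the Velvet factors. CED85080 and the uncalled hypothetical protein CED84435 (open square) stand apart from all others at a log2 ratio of 9.42 and 9.34, while CED83830 and CDZ96963 lie near the diagonal of equal values.

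The genes beside each of the 5 on its scaffold are given for comparison. On either side of CED85080, the gene for a cytokinin phosphoribohydrolase of the LOG family (CED85079) had 107 and 667 FPKM and a metalloprotease gene (CED85081) had 1.56 and 4.09 FPKM in the authors' deposited table. Their log2 ratios of 2.64 and 1.39 were above 0, and neither was called (q-values 0.167 and 0.230). The short-chain dehydrogenase CED85078 had a log2 ratio of 1.53 (q-value 0.0702), and the hypothetical protein CED85082 one of 1.40 with a call (q-value 0.0376). All 4 neighbours had higher values in q2, with a largest log2 ratio of 2.64 beside the 9.42 of CED85080. Of all tested genes, 3607 had log2 ratios above 0 and 2647 below. Over 10 genes on each side the median was 0.42, with 1 gene called higher and 2 called lower.

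The other Conidiation-specific protein 6 gene stood between expressed genes. CED85108, named for the Sur7/PalI family of cortical membrane proteins, had 132 and 75.8 FPKM, and the conserved gene CED85110 had 159.9 and 495 FPKM in the authors' deposited table, neither called. The level near 0 of CED85109 was therefore not shared by the genes directly beside it. Of the next genes out, CED85107 had 41.5 and 64.6 FPKM, while the hypothetical protein CED85111 was low, at 6.60 and 5.47 FPKM. Neither was called. Within 10 genes of CED85109, 1 was called, the methyltransferase domain gene CED85116 described below.

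The Velvet factor CED83830 lies 49 bases from the hypothetical protein CED83831. That small neighbour was called higher by the authors' deposited table, with 5.63 FPKM in q1 and 51.8 FPKM in q2 (log2 3.20, implied standard error 0.82, q-value 0.00424). The file gives no strand, so the arrangement of the pair is unknown. On the other side, CED83829, of unknown function, had a log2 ratio of 0.16 and CED83828, a membrane traffic gene, one of -1.30 (q-value 0.0576). CED83831 was the only called gene within 10 genes on each side, where the median was -0.18.

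Beside CED85626, 3 of the 4 closest neighbours had log2 ratios above 0, opposite to its own. Over all tested genes, 3607 ratios were above 0 and 2647 below, so nothing is read from this count. A Zn(2)-C6 fungal-type DNA-binding gene (CED85628), a class of fungal transcription factors, lies 2 genes further and was called higher by the authors' deposited table, with 15.7 and 58.6 FPKM (log2 1.90, q-value 0.0167). The guanine deaminase-like gene CED85625 had a log2 ratio of 1.37 (q-value 0.0543) and the N-methyltransferase gene CED85624 one of 1.53 (q-value 0.538). The BRCT domain gene CED85627 stood at -0.13. Over 10 genes on each side of CED85626, 3 were called higher, 0 were called lower and the median was 0.29. For CDZ96963, none of the 4 closest neighbours was called by Cuffdiff or had an unadjusted p-value below 0.05, and their log2 ratios ran from -0.73 to 1.06. Over 10 genes on each side of CDZ96963, 2 were called higher and 1 lower, with log2 ratios from -4.43 to 2.47 and a median of -0.10.

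**Figure D3:**
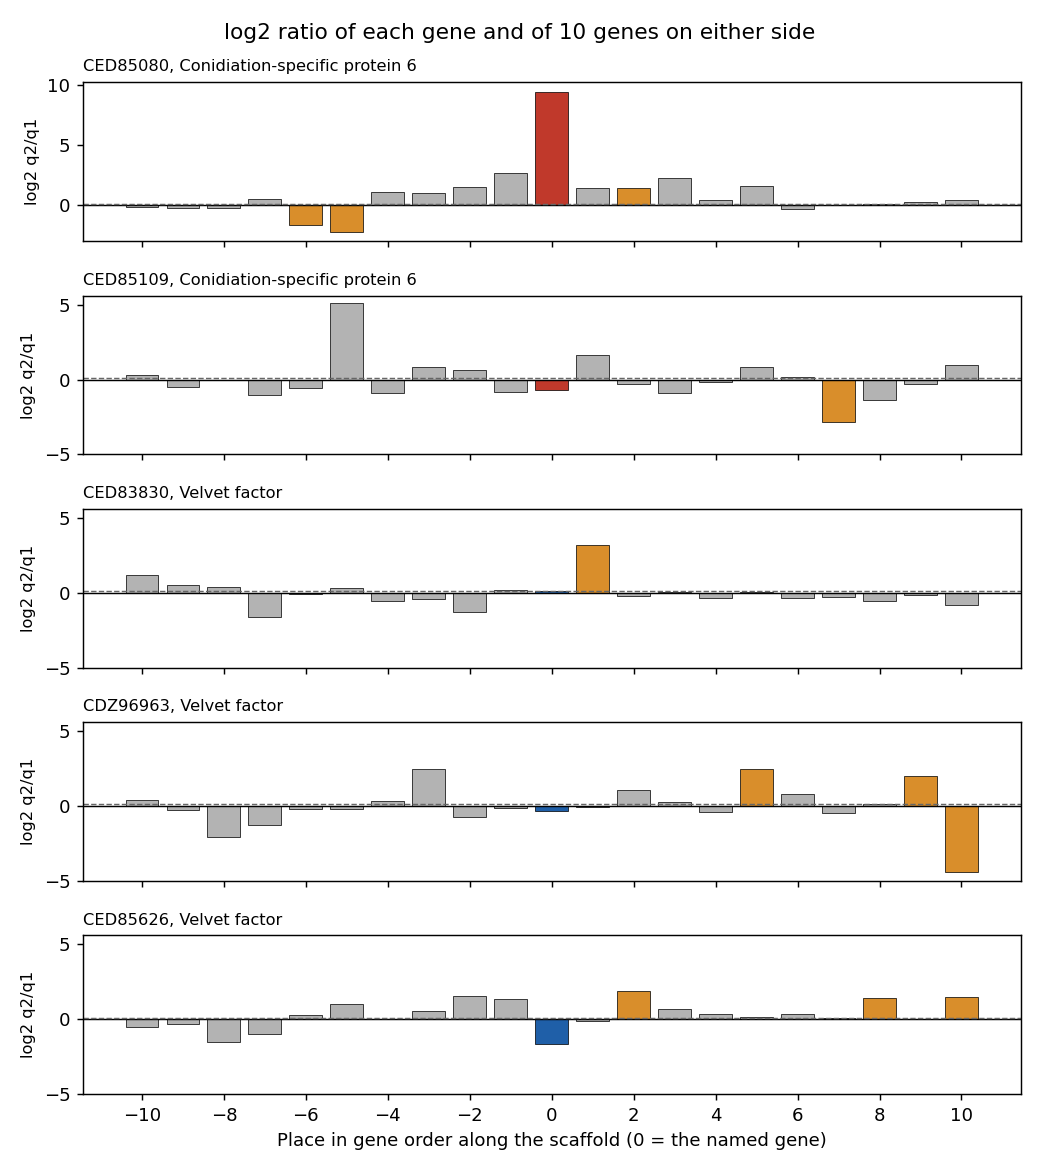
log2 ratio of q2 over q1 for each of the 5 genes (coloured bar at place 0) and for 10 genes on either side in scaffold order; orange bars have an authors' q-value below 0.05, grey bars do not, the dashed line is the median of all genes, and the top panel has a taller axis. The bar of CED85080 reaches 9.42 where its highest neighbour reaches 2.64, and CED85626 at -1.66 has 3 called neighbours, all of them higher.

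Related pathways were described with 7 lists, drawn up by words in the gene names, with nothing removed by hand and no set test. Over all tested genes the median log2 ratio was 0.12, and 5.53% were called. Scaling both conditions to the same FPKM sum lowers every ratio by 1.07, which puts the medians of all 7 lists below 0, those for light and for spores included. The median of all tested genes falls below 0 as well, and the place of each list relative to it does not change. In light sensing and photorepair, 2 of 8 genes were called higher and 0 lower, with a list median of 0.70. Both called genes are photolyase/cryptochrome genes, whose products repair ultraviolet damage or sense blue light. By the authors' deposited table, CED82658 stood at 11.9 and 479 FPKM (log2 5.34, implied standard error 1.41) and CDZ97756 at 6.67 and 38.5 FPKM (log2 2.53). The remaining gene of that name, CED82716, had 29.5 and 44.5 FPKM and was not called (log2 0.59, q-value 0.622). White collar 1 (CDZ96450), the blue-light receptor that drives con-6 in Neurospora crassa, had 31.8 and 55.6 FPKM and was not called (log2 0.81, implied standard error 0.58, q-value 0.568). A rhodopsin gene (CDZ98620) had 35.9 and 118 FPKM (log2 1.71, q-value 0.0756). The word rhodopsin also brought in 3 receptor genes named after the wider rhodopsin family, with log2 ratios from -0.24 to 0.22.

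For spores, conidia and meiosis, 2 of 11 genes were called higher and 0 lower, with a median of 0.45. This list holds both Conidiation-specific protein 6 genes, and CED85080 is one of the called ones. The other is CED85536, the catalytic subunit of the enzyme that makes the DNA breaks of meiotic recombination. The authors' deposited table gives it 1.11 and 7.17 FPKM (log2 2.70, implied standard error 0.71, q-value 0.00570). A subunit of the anaphase-promoting complex (CED85374) stood at 1.11 and the GSG1 gene (CED84527), with a predicted part in meiosis, at 0.89, neither called.

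The partner of Velvet factors in Aspergillus, LaeA, is named for no gene of the table. The list of SAM-dependent methyltransferases, the wider class of LaeA, matched only 2 genes. Its words missed methyltransferase genes with other names, such as the N-methyltransferase gene CED85624, so the list does not describe the class. One of them, CED85116 (scaffold 249, 571978 to 573388), fell by the authors' deposited table from 62.7 FPKM in q1 to 8.81 FPKM in q2 (log2 -2.83, q-value 0.00226). It is described there only as a methyltransferase domain and lies 7 genes beyond CED85109. The other, a MidA-type gene (CDZ98080), had 52.5 and 60.5 FPKM (log2 0.20, q-value 0.920).

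Cuffdiff called 0 of 20 genes of cAMP, G protein and MAP kinase signalling, the routes that carry nutrient and mating signals in fungi, with 1 gene at an unadjusted p-value below 0.05. Their median log2 ratio was -0.10. The highest ratios were those of CED82464, a G-protein beta-like WD repeat gene (log2 3.34, implied standard error 1.78, q-value 0.377), and CED82079 (log2 1.65, q-value 0.0653). Cuffdiff likewise called 0 of 19 genes matched by mating terms, with a median of -0.03, while 3 were higher and 2 were lower by an unadjusted p-value below 0.05. These terms matched HMG-box and homeodomain genes of any function, pheromone exporters of the multidrug family and a sirtuin gene (CDZ96224). Of the 2 lower ones, the authors' deposited table lists HMG-box gene CED83823 at 70.0 and 22.3 FPKM (log2 -1.65, q-value 0.0756). The other, exporter CED82671, had a log2 ratio of -1.48. The 3 higher ones were HMG-box gene CED85451 (log2 1.23), exporter CED83556 (log2 1.03) and the sirtuin gene (log2 0.96). In septins, chitin and polar growth, Cuffdiff called 0 of 9 genes, with 0 at an unadjusted p-value below 0.05 and a median of -0.38. Chitinase genes CED83636 and CDZ97770 stood lowest there, at -0.60 and -0.56.

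The list for endurance of dormant cells (trehalose, glycogen, heat shock, universal stress and catalase genes) had 2 of 24 genes called higher and 2 lower, with a median of -0.21. By the authors' deposited table, a glycogenin gene (CED82344), whose product primes glycogen synthesis, stood at 15.6 and 292 FPKM (log2 4.23). Catalase 1 (CDZ96425), which breaks down hydrogen peroxide, stood at 31.4 and 272 FPKM (log2 3.12). The other glycogenin gene, CDZ96803, had 66.6 and 56.5 FPKM (log2 -0.24), and glycogen synthase (CED83554) had 226 and 112 FPKM (log2 -1.01), neither called. CED83073, named UspA after a bacterial universal stress protein, fell from 509 to 24.8 FPKM and a heat shock transcription factor (CDZ96670) from 37.2 to 3.35 FPKM. CED85313, named for the trehalose synthesis component TPS1 and related subunits, had 54.4 and 17.6 FPKM and was not called (log2 -1.63, implied standard error 0.61, q-value 0.1002). A further trehalose-phosphate synthase gene, CED84219, had 239 and 93.3 FPKM and was not called either (log2 -1.36, q-value 0.346). A catalase-like gene (CDZ98863) had a log2 ratio of 1.51 (q-value 0.0939).

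**Figure D4:**
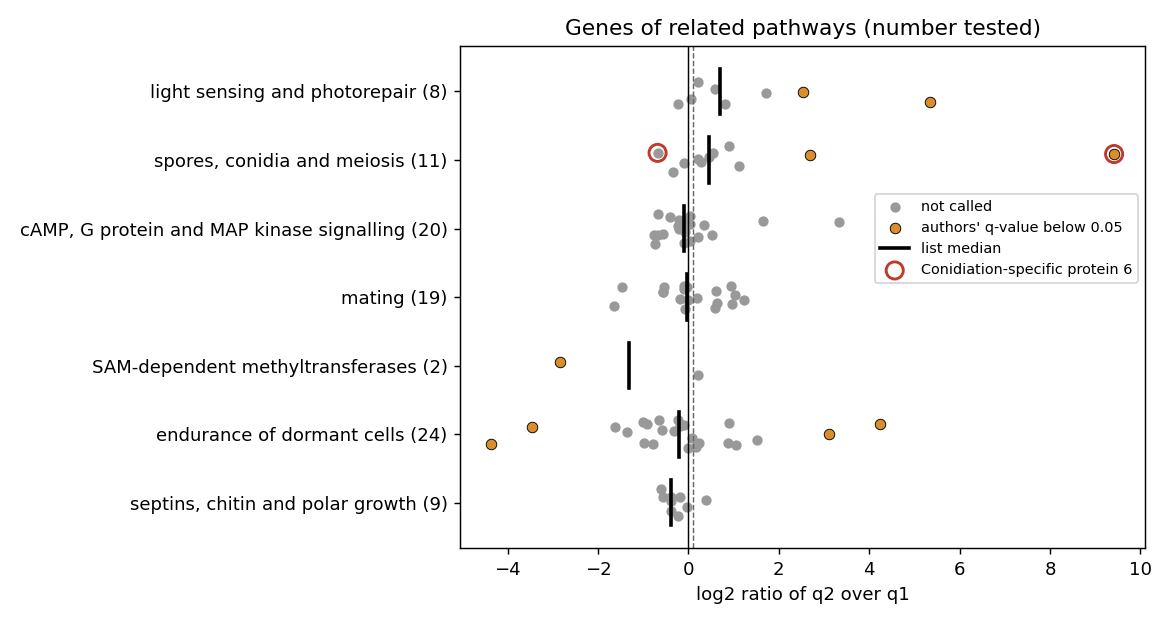
log2 ratio of q2 over q1 for every gene of the 7 lists, with the number of tested genes in brackets; orange points have an authors' q-value below 0.05, black bars are list medians, red rings mark the Conidiation-specific protein 6 genes, and the dashed line is the median of all genes. Called genes are all higher in light sensing and in spores, 2 higher and 2 lower in endurance, and absent from signalling, mating and polar growth.

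As context for every ratio, the FPKM values of the authors' deposited table had a sum 2.10 times as large in q2 as in q1, or 1.33 times without the 96 ribosomal protein entries. Over the 6106 genes above 1 FPKM in both conditions, the median log2 ratio was 0.11. Relative to it, CED85080 stood at 9.30, CED85109 at -0.79, CED83830 at -0.01, CDZ96963 at -0.47 and CED85626 at -1.77.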

How the data were processed

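RNA of 6 cultures, 3 per strain, was extracted with the ZymoBiomics kit and made into Illumina Stranded mRNA libraries, per the labels' protocols. Cuffdiff, Cufflinks, TopHat, Trimmomatic and FastQC are the tools in the submitters' processing notes. Their versions, the build and the annotation were not given in the sources used here, so loci are on numbered scaffolds without exon detail. Per the file headers, the authors deposited 1 value per gene and condition (FPKM by Cuffdiff's convention, since the header does not write the unit), a log2 ratio, a test statistic (a score), a q-value and the p-value behind it. The table has 0 columns of single samples, so no test over cultures was possible and edgeR or limma, foreseen for such columns, were not run.

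All calls are the authors' Cuffdiff q-values below 0.05, over 6272 tested genes, with no filter on low values. All 5 genes were tested. Untested genes numbered 91. Recomputed log2 ratios differed from the deposited ones by at most 1.38e-05, and recomputed Benjamini-Hochberg values by at most 5.26e-07. Another sheet gives the same genes with 0 differing cells, and a further sheet holds 331 genes selected by the authors, all of them called, CED85080 and CED85626 included. The implied standard error is the absolute log2 ratio over the normal quantile that its two-sided p-value stands for, and implied 95% intervals use it. The arithmetic of these errors and of the adjustment was checked on simulated data whose p-values were normal by construction. That check cannot show that the errors hold for the deposited p-values. For CED85283, Cuffdiff gave a test statistic of 0.706 with a p-value of 0.00195. To each start in the file 1 was added, since among 405 tested genes with spans under 600 bases the span counted in that way was a multiple of 3 in 233.

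The genes and lists were chosen with earlier results of these data known. Named genes are the 5 genes, their 2 neighbours on each side, up to 3 genes most alike to each, the genes next to them in the order of ratios, and, per list, the called genes and the 2 others with the largest ratio at a mean of at least 1 FPKM. Some list genes with a name like that of a named gene are given beside it. The mating genes higher at an unadjusted p-value below 0.05 are also named. Words were matched from their start, and opsin also at the end of a word. Alternatives covered thresholds, low-value filters, pseudocounts of 0.1, 1 and 10 FPKM and 4 scalings. Python 3.11.15, pandas 2.3.3, NumPy 2.4.6 and SciPy 1.17.1 were used.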

Additional observations from a re-analysis of the deposited data

How the results depend on the processing

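Of 68 values recomputed, 59 were counted as unchanged, and 0 called ratios changed sign. The limits were loose for uncalled ratios, so this count does not show that they kept their size. CED85109 was counted as unchanged at -0.03 with a pseudocount of 10 FPKM and at -1.75 with equal FPKM sums, against -0.68. CED83830 was counted as unchanged at -0.31 with FPKM sums equal without ribosomal proteins, against 0.10. The 2 calls among the 5 genes became 1, CED85080, when an absolute log2 ratio of at least 2 was also required. With both conditions scaled to the same FPKM sum, the log2 ratio was -0.97 for CED83830, -1.43 for CDZ96963 and -2.72 for CED85626, because this scaling lowers every ratio by 1.07. With a pseudocount of 10 FPKM, CED85626 stood at -1.08. The calls over all genes numbered 192 at a q-value below 0.01 and 916 at an unadjusted p-value below 0.05, against 347. At that unadjusted p-value, 1 signalling gene and 5 mating genes passed, against 0 and 0 by q-value. The scaled ratios carry no new test. No paired analysis was possible because the deposited table holds 1 value per condition and no column of a single culture, and for the same reason no replicate could be left out. Depth per library is unknown, so the limit of detection for CED85109 cannot be given in reads.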
